A study of Mus musculus with 4 samples.

Results

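The Fc gamma receptor genes were compared between spleens of Nrf2 knockout and wild-type mice. Their members were 5 genes chosen by platform gene symbol, Fcgr1, Fcgr2b, Fcgr3, Fcer1g and Fcgrt, and all probe sets carrying one of these symbols were taken. This gave 7 of the 12422 probe sets of the array that are not controls, and 5 of the 8251 genes named by a probe set with a single symbol. Total RNA came from female mice aged 5 months, with 2 arrays of Nrf2 -/- spleen and 2 arrays of Nrf2 +/+ spleen. Both genotypes were littermates from crosses between heterozygotes. The wild-type grandparents were of C57B6/SJL and the knockout grandparents of C57B6/129SVJ background, so animals of both groups carry mixed strain alleles. Nrf2, encoded by Nfe2l2, is a transcription factor of antioxidant and detoxification genes, and the labels place the animals before severe autoimmune disease. Whether each array was made from 1 animal or from pooled animals is not stated, so the spread between arrays may be technical.

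Fc gamma receptors bind the constant part of IgG and tie antibody to the responses of macrophages, neutrophils, NK cells and B cells. Fcgr1, the high-affinity receptor, and Fcgr3, a low-affinity receptor, are activating: they signal through the common gamma chain encoded by Fcer1g, whose tyrosine-based activation motif recruits Syk. Fcgr2b is the inhibitory receptor, with an inhibition motif in its own tail that recruits the lipid phosphatase Inpp5d, and it is the classical Fc gamma receptor of B cells. Fcgrt encodes the neonatal Fc receptor, which pairs with beta-2 microglobulin and returns IgG and albumin from endosomes to the blood. In bulk spleen, fewer cells of a type and less RNA per cell cannot be told apart.

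Because the mice differ in a transcription factor, the start regions of the genes are shown for the members whose values are described most closely below. Promoter sequences came from RefSeq on build GRCm38.p6, where all 5 genes were matched by symbol. Each sequence is the 250 bases before the annotated start, 5′ to 3′ on the gene's strand, which is the minus strand for all 4 genes shown. The Fcgr1 stretch lies at chr3:96293970-96294219, that of Fcer1g at chr1:171234350-171234599, that of Fcgr2b at chr1:170976072-170976321 and that of Fcgrt at chr7:45103823-45104072. Capitals mark matches, on either strand, to the antioxidant response element core TGACNNNGC, to which Nrf2 binds, to the PU.1-type letters GAGGAAG and to the STAT-type palindrome TTCNNNGAA. No matches overlapped each other.
Fcgr1: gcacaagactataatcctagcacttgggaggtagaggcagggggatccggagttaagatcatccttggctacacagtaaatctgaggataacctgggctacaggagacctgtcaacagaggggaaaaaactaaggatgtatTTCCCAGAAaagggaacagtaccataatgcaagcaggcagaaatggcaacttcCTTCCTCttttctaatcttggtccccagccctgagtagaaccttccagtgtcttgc
Fcer1g: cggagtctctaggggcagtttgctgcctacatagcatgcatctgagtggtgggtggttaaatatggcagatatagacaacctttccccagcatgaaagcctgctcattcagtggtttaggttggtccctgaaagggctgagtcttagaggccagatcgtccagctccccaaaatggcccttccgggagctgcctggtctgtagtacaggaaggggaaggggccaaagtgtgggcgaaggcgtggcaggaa
Fcgr2b: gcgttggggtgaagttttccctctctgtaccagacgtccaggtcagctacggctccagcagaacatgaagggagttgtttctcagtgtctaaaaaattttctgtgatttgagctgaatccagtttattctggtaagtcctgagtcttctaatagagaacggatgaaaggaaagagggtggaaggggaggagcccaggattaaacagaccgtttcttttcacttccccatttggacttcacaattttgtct
Fcgrt: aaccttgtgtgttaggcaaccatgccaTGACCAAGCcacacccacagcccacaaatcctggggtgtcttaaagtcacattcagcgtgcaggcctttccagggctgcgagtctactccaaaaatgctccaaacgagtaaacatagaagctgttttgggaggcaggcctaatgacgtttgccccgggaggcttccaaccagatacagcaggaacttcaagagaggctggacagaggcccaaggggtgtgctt
The antioxidant core was found in the Fcgrt stretch, 223 bases before the start, and not in these letters of the other 4 members. Of 27025 mouse promoters of the same length, 10.1% held that core. Fcgr1 held the STAT-type palindrome 109 bases before its start, which 7.18% of all promoters held. The PU.1-type letters were present in Fcgr1, 56 bases before the start, and in Fcgr3, and in 10.4% of all promoters. A match of letters is a description and no evidence that a factor binds there.

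The values are probe-set intensities on a linear scale. Intensities below 185.475, the pooled 25th percentile, were raised to that floor before log2 was taken, and a probe set was tested where its mean lay above 468, the 40th percentile of means. Of the 7 member probe sets 3 were bright enough to be tested, 1 each for Fcgr1, Fcer1g and Fcgr2b. The names of all 3 carry a mark for possible cross-hybridisation, and none of the 4 dim ones does. Of the 3 tested, 0 passed an adjusted p of 0.05 and 0 had an unadjusted p under 0.05 in limma, where 0.0537% and 1.74% of all 7453 tested probe sets did. In 2 of the 3 the knockout arrays both lay above the wild-type arrays, which was so for 14.3% of all tested probe sets, and in none did both lie below, against 12.2% (26.4% in either direction). With 3 probe sets no share can be read from these counts.

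The arrays were not equally alike. Across tested probe sets Pearson's r lay between 0.938 and 0.947 for arrays other than wild-type replicate 1, and between 0.849 and 0.851 for pairs that include it. Wild-type replicate 1 lay more than 2-fold below the other 3 arrays in 11.8% of tested probe sets, against 0.577% to 1.54% for the others. It lay more than 2-fold above the other 3 in 3.61%, against 0.161% to 0.322%, so it stood apart in both directions. Its 3' to 5' ratio of the Gapdh control was 88.3, against 8.07 to 34.8, while that of the beta-actin control was 14.4, inside the range of 8.86 to 19.3. In every array both controls read at least 8.07-fold higher at the 3' end. Wild-type replicate 2 had the lowest ratio for each control, so the other arrays were not alike in this either. The targeted gene Nfe2l2 read 202 and 178.6 in knockout arrays and 3537.4 and 6321.1 in wild-type arrays (log2 difference -4.61, limma adjusted p = 0.0199). This accords with the genotype labels, although it is not stated if the probe set falls within the deleted region.

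**Figure D1:**
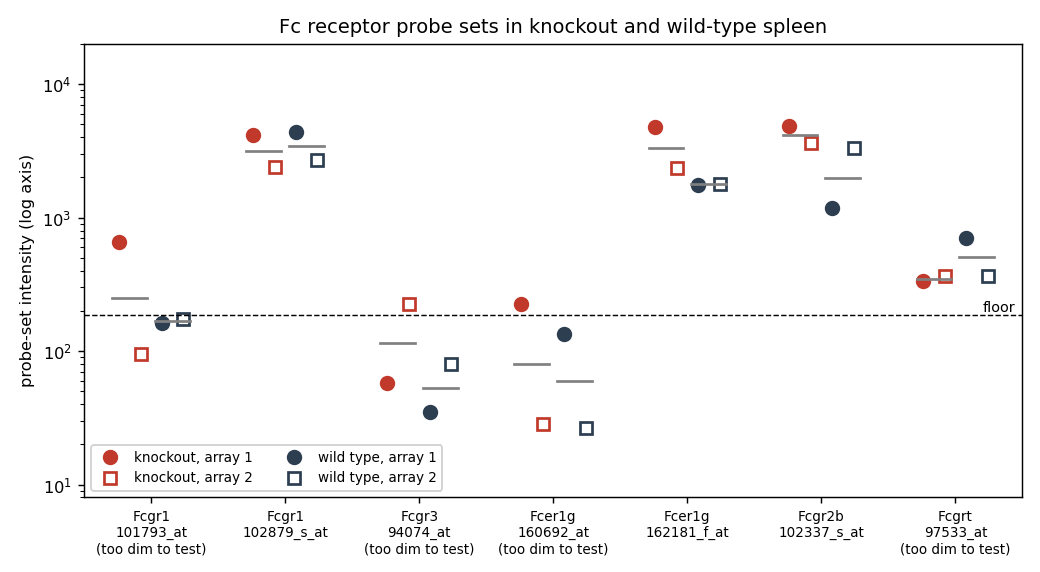
Intensity on a log axis of each of the 7 Fc receptor probe sets in the 4 arrays, with knockout in red, wild type in dark blue, replicate 1 filled and replicate 2 open. Grey bars are geometric means of the unfloored values and the dashed line is the floor of 185.475. The Fcgr2b point of wild-type replicate 1, at 1173.2, lies apart from the other 3, which run from 3339.1 to 4842.7.

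Activating receptors. The brighter Fcgr1 probe set (102879_s_at) read 4194.7 and 2399.8 in the knockout arrays and 4377 and 2716.2 in the wild-type arrays. Replicate 1 was the higher array in each genotype, and the genotypes overlapped. Knockout minus wild type was -0.12 in log2 units, with an SE of 0.46, a 95% confidence interval from -1.19 to 0.95 and a limma adjusted p of 0.993 (n = 2 arrays in each group). On the linear scale the interval runs from a ratio of 0.438 to 1.93, so changes of that size in either direction stay compatible with these arrays. The sign turned to 0.28 without knockout replicate 2 and to 0.22 without wild-type replicate 1.

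The other Fcgr1 probe set (101793_at) read 659.9 in knockout replicate 1 and 95.5 in knockout replicate 2, against 162.7 and 174.8 in wild-type spleen. A single knockout array was above the floor and the other 3 arrays were below it. The 2 Fcgr1 probe sets therefore gave different pictures, since the brighter had knockout replicate 1 inside the wild-type range. Fcgr3 (94074_at) read 57.5 and 226.5 in knockout and 35.2 and 80 in wild-type spleen. Only knockout replicate 2 was above the floor, so the wild-type arrays give only an upper bound and no fold is given. Fcgr3 protein is abundant on splenic macrophages and NK cells, while this probe set ranked between percentiles 5.15 and 28.3 of its arrays.

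The common gamma chain. Fcer1g was read by a bright probe set (162181_f_at) at 4761.4 and 2339.9 in the knockout arrays and at 1770.3 and 1792.4 in the wild-type arrays. Both knockout arrays lay above both wild-type arrays, and the wild-type arrays differed by 1.01-fold while the knockout arrays differed by 2.03-fold. Knockout minus wild type was 0.91 in log2 units (SE 0.46, interval -0.15 to 1.96, unadjusted p = 0.0838, limma adjusted p = 0.992), a ratio of 1.87. It was 0.39 without knockout replicate 1 and 1.42 without knockout replicate 2, so the size rests on which knockout array is kept. Leaving out wild-type replicate 1 or 2 gave 0.90 and 0.91, close to the value of all 4 arrays.

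The second Fcer1g probe set (160692_at) did not share this pattern. It read 224.8 and 28.3 in knockout and 134.6 and 26.7 in wild-type spleen. Replicate 1 was the higher in each genotype, 3 of the 4 arrays were below the floor, and the genotypes overlapped. The separation of genotypes thus appears in the bright probe set, whose name marks a sequence family, and not in the dim one.

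The inhibitory receptor. Fcgr2b (102337_s_at) read 4842.7 and 3630 in knockout spleen and 1173.2 and 3339.1 in wild-type spleen. The genotypes did not overlap, but wild-type replicate 2 lay close to the knockout arrays and wild-type replicate 1 lay 2.85-fold below it. The difference was 1.08 (SE 0.55, interval -0.18 to 2.35, unadjusted p = 0.0833, limma adjusted p = 0.992), a ratio of 2.12. Among all tested probe sets 3.48% had a smaller p. Without wild-type replicate 1 the difference was 0.33 (interval -0.53 to 1.19, limma unadjusted p = 0.368), a ratio of 1.26. Without wild-type replicate 2 it was 1.84 (interval 0.98 to 2.70, unadjusted p = 0.00296, limma adjusted p = 0.0661), a ratio of 3.57, and with a single wild-type array the fit assumes that this array varies like the knockout arrays. In that fit 2189 of the 7453 tested probe sets (29.4%) had an unadjusted p under 0.05 in limma, against 130 (1.74%) with all 4 arrays. The Fcgr2b difference therefore rests on wild-type replicate 1, the array that stands apart over the whole table.

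Marker levels differed in that array too, not all in the same direction, and their part in the Fcgr2b value was not tested. The summed intensity of 12 measured B cell markers was 367850 in wild-type replicate 1, 225800 in replicate 2 of that genotype, and 228287 and 188292 in knockout replicates 1 and 2. In wild-type replicate 1 Ms4a1, which encodes CD20, and Cd79b, a B cell receptor signalling chain, made up 64.8% of the sum. That array was the highest of the 4 for 7 of the 12 markers and the lowest for 2, Blnk and Pou2af1. Of these 12 markers all were tested, with 3 reading higher and 9 lower in the knockout, and none was below the floor in all 4 arrays. The sum of 17 measured macrophage and monocyte markers was 223526 in wild-type replicate 1 against 242479 to 292025 in the others. That array was the lowest for 6 of the 17 and the highest for 4, so these markers did not shift together. Of the 15 tested, 9 read higher and 6 lower, with a median difference of 0.06, and Siglec1 was below the floor in all 4 arrays. Marco, the scavenger receptor of marginal zone macrophages, read 9503.5 and 7391.4 in knockout and 19297.9 and 11034.6 in wild-type spleen (log2 -0.80, limma adjusted p = 0.992). Cd5l also read lower (log2 -0.90), while Mpeg1 read higher in both knockout arrays than in both wild-type arrays (log2 0.80), with limma adjusted p = 0.992 for each. The 7 dendritic cell markers summed to 12645.2 in wild-type replicate 1, which was lowest for 5 and highest for 0, against 17331.5 to 23768.5. In 3 of the 7 (42.9%) both knockout arrays lay above both wild-type arrays, against 14.3% of all tested probe sets. The 10 endothelium and stroma markers summed to 71794.3 in wild-type replicate 1, which was highest for 4 and lowest for 4, against 35163.9 to 47450.8.

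Neutrophils also carry Fc gamma receptors, and 11 of 12 tested neutrophil markers read higher in knockout spleen, with a median difference of 1.13. None passed in limma and 5 had an unadjusted p under 0.05, which was so for 1.74% of all tested probe sets. Their summed intensity was 505556 and 569198 in the knockout arrays, and 711028 and 175028 in wild-type replicates 1 and 2. S100a8 and S100a9, the calprotectin subunits, made up 62.3% of the sum of wild-type replicate 1. In 7 of the 12 tested markers (58.3%) both knockout arrays lay above both wild-type arrays, against 14.3% of all tested probe sets, and in 1 both lay below. The median was 1.96 without wild-type replicate 1, and 0.15 with 7 of 12 higher without wild-type replicate 2. Neutrophil elastase, Elane, read 6949.6 and 7672.8 against 3091.8 and 1775.6 (log2 1.64, limma adjusted p = 0.992). NK cell markers, 5 of them tested, had a median difference of 0.05, and 0 passed in limma with 0 under an unadjusted p of 0.05. The 6 tested mast cell and basophil markers had a median of 0.35, with the same counts of 0. Markers of exocrine pancreas, a tissue that lies beside the spleen, summed to 9420.9 and 10972.7 in knockout arrays, and to 82575.5 and 21369.9 in the first and second wild-type replicates. Of the 7 tested, 6 had an unadjusted p under 0.05 and 0 passed in limma, against 1.74% and 0.0537% of all tested probe sets. In those 7 both knockout arrays lay below both wild-type arrays for 6, against 12.2% of all tested probe sets. All 9 measured were highest in wild-type replicate 1. T cell markers summed to 47737.1 and 39331 in knockout arrays and to 86741.6 and 50284.4 in those wild-type arrays, with a median of -0.46. Platelet markers summed to 13021.1 and 12798.7 against 14036.5 and 4848.7, with a median of 1.34 over 4 tested. Without wild-type replicate 2 that median was 0.83, with 2 markers higher and 2 lower. Erythroid markers summed to 20735.8 in knockout replicate 1 and to 102493 to 118814 in the other 3 arrays, and their median of -1.02 became 0.30 without knockout replicate 1. The part of these cell types and tissues in the Fc receptor values was not tested.

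The neonatal Fc receptor. Fcgrt (97533_at) was above the floor in all 4 arrays but too dim to be tested, with a mean level of 421. It read 334.5 and 364.2 in knockout and 708.9 and 363 in wild-type spleen. Wild-type replicate 1 was the high array, wild-type replicate 2 lay between the knockout arrays, and the genotypes overlapped. The log2 difference was -0.54 with no test. Its partner B2m read 94506 and 109601 in knockout arrays and 119208 and 95406.8 in wild-type arrays (log2 -0.07, limma adjusted p = 0.997), also with overlap.

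**Figure D2:**
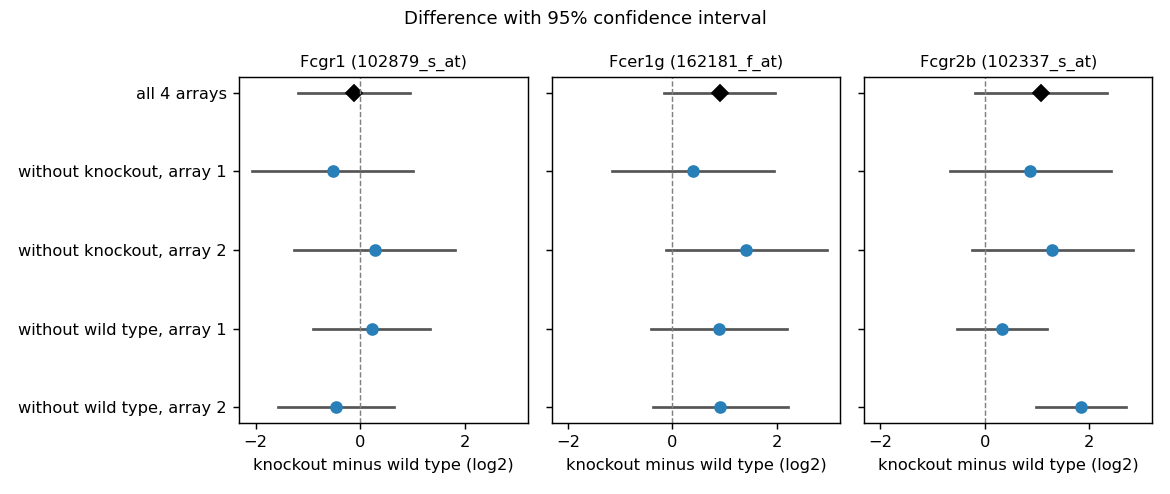
Knockout minus wild-type difference on the log2 scale, with its 95% confidence interval, for the 3 tested Fc receptor probe sets, with all 4 arrays (diamond) and with each array left out (circles). Fcgr2b moves from 1.08 to 0.33 without wild-type replicate 1 and to 1.84 without wild-type replicate 2, while Fcer1g moves with the knockout arrays.

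Activating against inhibitory receptors. The balance was followed as the log2 intensity of an activating-side probe set minus that of Fcgr2b within each array. Its level has no meaning, since probe sets differ in brightness, but its difference between genotypes shows whether the genes differed unequally. For Fcgr1 it was -0.21 and -0.60 in the knockout arrays and 1.90 and -0.30 in the wild-type arrays. Wild-type replicate 1 was the high array, and wild-type replicate 2 lay between the knockout arrays. Knockout minus wild type was -1.20, toward the inhibitory side in knockout spleen (exact two-sided permutation p = 0.667 over 6 assignments), and -0.10 without wild-type replicate 1 against -2.30 without wild-type replicate 2.

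For the bright Fcer1g probe set the balance was -0.02 and -0.63 in knockout and 0.59 and -0.90 in wild-type spleen. The knockout arrays lay between the wild-type arrays. The difference was -0.18 (exact two-sided permutation p = 1), and its sign turned to 0.57 without wild-type replicate 1 and to 0.13 without knockout replicate 2. With 2 arrays against 2 no such p can go below 0.333. The other 3 pairs, of the dim Fcgr1, Fcgr3 and Fcer1g probe sets with Fcgr2b, hold 3 values below the floor each, with differences of -0.17, -0.94 and -0.94 and exact two-sided permutation p of 0.667, 0.667 and 0.333. With all values at the floor, the difference of a pair would be that of Fcgr2b (1.08) with its sign turned. In each of these pairs 1 knockout value above the floor makes it smaller in size, most of all for the dim Fcgr1 probe set. In neither pair of tested probe sets did the genotypes separate.

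**Figure D3:**
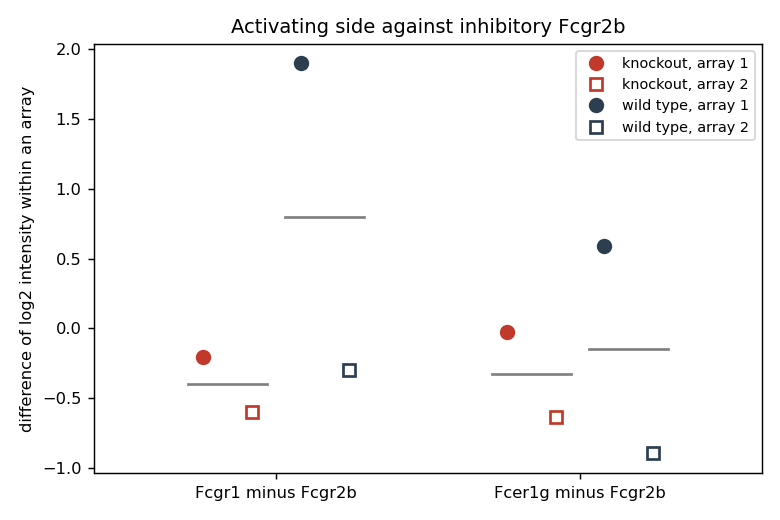
Log2 intensity of Fcgr1 and of Fcer1g minus that of Fcgr2b within each of the 4 arrays, with grey bars at the mean of each genotype. Wild-type replicate 1 is the highest point of each pair, at 1.90 and 0.59, and wild-type replicate 2 lies at -0.30 and -0.90.

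Other Fc receptors and gamma chain partners. Fcgr4, a further Fc gamma receptor, had no probe set with that single symbol, so it has no value here. Of 12 listed other Fc receptors and related molecules, Fcgr4 among them, 4 were tested and 0 passed in limma, against 0.0537% of all tested probe sets. An unadjusted p under 0.05 was found for 1.74% of all tested probe sets and for 1 of these 4 genes. It was Fcer2a, the low-affinity IgE receptor CD23 of follicular B cells, at 4180.9 and 2792.2 in knockout arrays and 11177.6 and 8495.3 in wild-type arrays (log2 -1.51, SE 0.42, unadjusted p = 0.00743, limma adjusted p = 0.992). Fcer2a is itself a B cell marker, and its groups were separate in the direction opposite to Fcgr2b. Fcrla, an intracellular Fc receptor-like protein of B cells whose gene lies near Fcgr2b, read 7288.7 and 3546.4 against 5812.9 and 5603 (log2 -0.17, limma adjusted p = 0.992). Of 13 gamma chain partners and related adaptors 4 were tested, with 0 passing and 0 under an unadjusted p of 0.05 in limma. Tyrobp, the adaptor DAP12 that carries the same kind of activation motif as the gamma chain, read 50724.4 and 35918.5 in knockout and 78978.9 and 32748.5 in wild-type spleen (log2 -0.25, limma adjusted p = 0.992). Wild-type replicate 1 was the high array for Tyrobp and the low array for Fcgr2b.

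Signalling downstream of activating receptors. Of 9 listed kinases 7 were tested and 0 passed in limma, with 0 under an unadjusted p of 0.05. Their median difference was 0.68 with all arrays, against 0.04 over all tested probe sets, and 0.02 without wild-type replicate 1. Syk, which docks on the phosphorylated gamma chain, read 21790.8 and 19224.3 in knockout and 16382.1 and 19536 in wild-type spleen (log2 0.19, limma adjusted p = 0.992). Fgr, a Src family kinase of myeloid cells, read 2903.6 and 2480.4 against 1350.8 and 2088, with separate groups (log2 0.68, limma adjusted p = 0.992). Fyn, another Src family kinase, read 5556.6 and 4272.9 against 950.7 and 4829.7 (log2 1.19, limma adjusted p = 0.992), with wild-type replicate 1 again the low array.

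The adaptors, lipases, exchange factors and GTPases of Fc receptor phagocytosis formed the longest list, with 30 of 45 genes tested and 0 passing or under an unadjusted p of 0.05 in limma. Of these, 22 read higher and 8 lower in knockout spleen, with a median of 0.27. With array medians made equal the split was 18 and 12, and without wild-type replicate 1 it was 14 and 16 with a median of -0.04. Arpc5, a subunit of the actin-branching Arp2/3 complex, read 5955.2 and 4933 against 2005.3 and 4674.8 (log2 0.82, limma adjusted p = 0.992). Lcp2, the adaptor SLP-76, read 9081.5 and 6079.8 against 3249.4 and 5853 (log2 0.77, limma adjusted p = 0.992). In both genes the groups were separate, wild-type replicate 2 lay just below the knockout arrays, and wild-type replicate 1 was lowest.

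Inhibitory signalling. Of 15 listed phosphatases and inhibitors 10 were tested and 0 passed or had an unadjusted p under 0.05 in limma, with a median of 0.24 (0.07 without wild-type replicate 1). Inpp5d, the phosphatase SHIP1 that Fcgr2b recruits, read 6894.6 and 5794.2 in knockout and 4472.7 and 5834.3 in wild-type spleen on its brighter probe set, with overlap (log2 0.31, limma adjusted p = 0.992). Its other probe set read 677.8 and 714.5 against 529.7 and 282.3, with separate groups (log2 0.85, limma adjusted p = 0.992). Ptpn6, the tyrosine phosphatase SHP-1, read 15001.2 and 9572.3 against 17474.2 and 13278.9 (log2 -0.35, limma adjusted p = 0.992). Of 13 other receptors with an inhibition motif 6 were tested, with the same counts of 0 and a median of -0.14. Cd72, an inhibitory coreceptor of B cells, read 22817.1 and 7729.6 against 6472.5 and 6566.5 (log2 1.03, limma adjusted p = 0.992), a profile in which knockout replicate 1 alone stood high. Cd22, another B cell inhibitory receptor, overlapped between genotypes (log2 -0.48, limma adjusted p = 0.992).

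Ligands and other opsonin receptors. Of the immunoglobulin constant and joining chain genes 5 were tested and 0 passed or had an unadjusted p under 0.05 in limma. Ighg3, the IgG3 heavy chain constant gene, read 58636.6 and 51726.2 in knockout and 21871.8 and 78540.8 in wild-type spleen on its brightest probe set (log2 0.41, limma adjusted p = 0.992). Probe sets of this multigene family can share targets, and another Ighg3 probe set, chosen after its values were seen, gave -1.62 (limma adjusted p = 0.992). Jchain, which links polymeric IgA and IgM, read 59848.6 and 57722.3 against 21863.3 and 51990 (log2 0.80, limma adjusted p = 0.992). Of 10 complement receptor and C1q genes 8 were tested with the same counts of 0. Itgax, the integrin chain CD11c, read 11286 and 4541.9 against 3275 and 3928.8 (log2 0.997, limma adjusted p = 0.992). Of the 12 genes listed around Fcgrt 9 were tested and 0 passed in limma, against 0.0537% of all tested probe sets. An unadjusted p under 0.05 was found for 1.74% of all tested probe sets and for 1 of these 9 genes. It was Alb, encoding albumin, a cargo of the receptor, at 487.7 and 360 in knockout arrays and 840.2 and 4893.8 in wild-type arrays (log2 -2.27, unadjusted p = 0.0191, limma adjusted p = 0.992), and wild-type replicate 2 was the high array.

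Over the 83 genes tested in these 9 lists together, 0 passed and 2 had an unadjusted p under 0.05 in limma. Those 2 genes are 2.41%, near the 1.74% of all tested probe sets. The median difference was 0.23, and 69.9% read higher, against 0.04 and 53.7% over all tested probe sets. Without wild-type replicate 1 the median was 0.03 and 56.6% read higher, against 0.01 and 51.0% over all. In 16 genes the groups were separate with knockout higher and in 5 with knockout lower, which is 19.3% and 6.02%, against 14.3% and 12.2% of all tested probe sets.

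**Figure D4:**
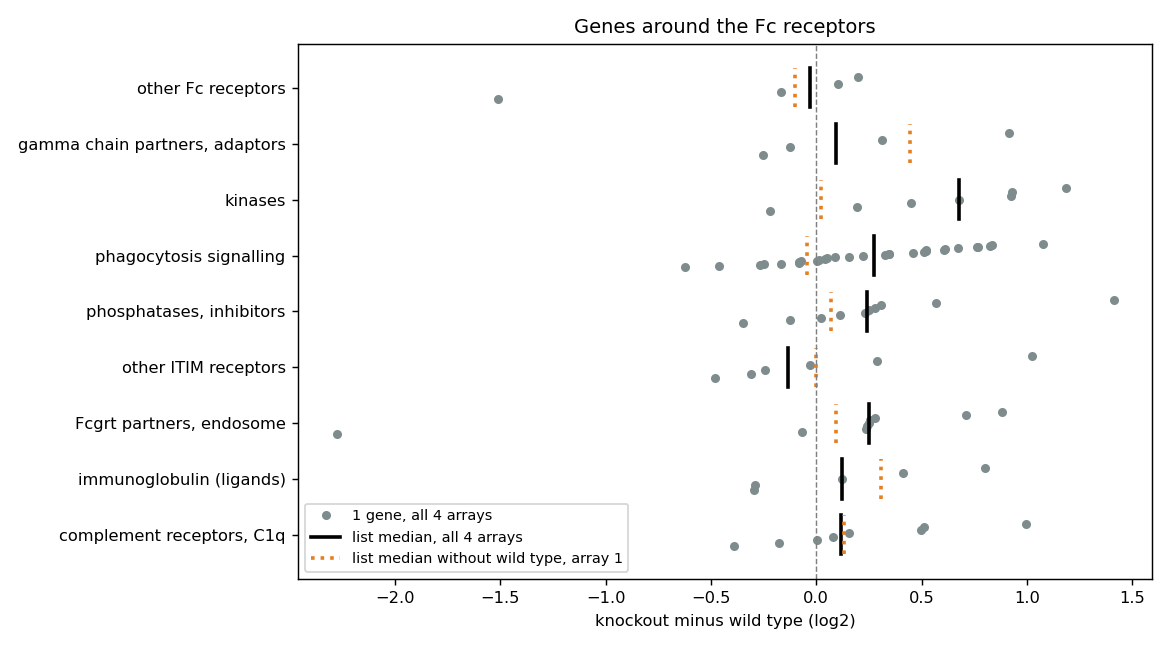
Knockout minus wild-type difference on the log2 scale for each tested gene of the 9 lists around the Fc receptors (grey points), with the list median over all 4 arrays (black) and without wild-type replicate 1 (dotted orange). The kinase median moves from 0.68 to 0.02 and the phagocytosis signalling median from 0.27 to -0.04 without that array.

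Genes with the most similar profile were sought for each tested member, as the smallest root mean square distance over the 4 arrays between log2 values centred on each probe set's own mean. With 4 arrays this describes a shape and no more. Nearest to Fcgr2b were Atxn2 (distance 0.04), the endoplasmic reticulum chaperone gene Hsp90b1 (0.05) and the GM-CSF receptor gene Csf2ra (0.08), against a median distance of 0.81 over all tested probe sets. Hsp90b1 read 59885.2 and 45707.8 in knockout and 15182.2 and 38980.9 in wild-type spleen, so it too was low in wild-type replicate 1. Nearest to the bright Fcer1g probe set were Gm14743 (0.06), the leukotriene B4 receptor gene Ltb4r1 (0.09) and the phosphatase gene Acp1 (0.13), against a median of 0.67. Ltb4r1 read 1139.7 and 656.2 against 457.8 and 486.1. Nearest to the brighter Fcgr1 probe set were Ccdc28b (0.05), the complement factor B gene Cfb (0.06) and Igkv6-14 (0.06), against a median of 0.49.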

How the data were processed

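Total RNA of 4 spleens or spleen pools was measured on 1-colour arrays. The deposited values are probe-set intensities on a linear scale. How the authors scaled the intensities, and with which software, is not given in the sources used here. Their 2% trimmed means lay between 2501.5 and 2502.0, so no further scaling was applied. Values were floored at the pooled 25th percentile, log2 was taken, and 66 control probe sets were left out. The 7453 probe sets with a mean above the 40th percentile were fitted with limma 3.58.1 in R 4.3.3 (lmFit, eBayes with an intensity trend, genotype as the only term). P-values are two-sided and Benjamini-Hochberg adjusted over all 7453. Symbols came from the platform annotation, updated by gene identifier: 10833 probe sets had 1 symbol, 396 several and 1193 none. Lists use the brightest tested probe set of a gene. The procedure was tested on simulated data. Figures used matplotlib 3.10.9.

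The members and the lists were chosen with earlier results of these data known. Named by rule were all member probe sets, Nfe2l2, selected signalling genes, up to 3 genes per list with the smallest p, of which a part is printed, and the 3 nearest profiles per member. Other genes, and second probe sets, were chosen after their values were seen. Alternatives covered scaling, floor, filter, trend, array weights, the replicate number as a block and leaving out each array. Having 2 arrays a group sets the precision.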

Additional observations from a re-analysis of the deposited data

How the results depend on the processing

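None of the 3 tested member probe sets passed under any of the 13 alternatives in limma. Of the 3, Fcgr2b reached an unadjusted p under 0.05, with the replicate number as a block (limma adjusted p = 0.913) and without wild-type replicate 2. In those fits 350 (4.70%) and 2189 (29.4%) of 7453 tested probe sets did so, against 130 (1.74%). Fcgr2b and Fcer1g kept their sign in all 13, from 0.33 to 1.84 and from 0.39 to 1.42. Fcgr1 changed sign without knockout replicate 2 or wild-type replicate 1, its leave-one-out differences running from -0.52 to 0.28. The Fcer1g balance against Fcgr2b ran from -0.92 to 0.57 with an array left out and the Fcgr1 balance from -2.30 to -0.10. Leaving out probe sets marked for cross-hybridisation left no tested member, so that alternative gave no value. Over all probe sets the count passing, 4, was 0 without the filter (339 at an unadjusted p under 0.05 in limma), 36 with the replicate number as a block, and 3 to 13 with an array left out. In the pathway lists the count of 0 became 1 with the block, for Alb (limma adjusted p = 0.0124), and remained 0 in the 12 others; averaging the probe sets of a gene moved the median over the 83 genes from 0.23 to 0.24. The replicate numbers have no stated meaning and deviations of same-numbered arrays correlated at 0.04 across probe sets, so this block has no stated basis. No paired analysis was possible beyond it because the labels pair no animals.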

Other observations

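Fcgr2b, Fcgr3 and Fcer1g lie in the same stretch of chromosome 1, while Fcgr1 lies on chromosome 3, Fcgrt on 7 and Nfe2l2 on 2, by the GRCm38.p6 gene table. Neighbours of the chromosome 1 members, looked at after the member values were seen, give the levels of the stretch in the same arrays. Sdhc, a subunit of respiratory complex II between Fcgr3 and Fcer1g, read 6290 and 6819.3 in knockout and 3402 and 7263.9 in wild-type spleen, with overlap (log2 0.40, limma adjusted p = 0.992). Nr1i3, the nuclear receptor CAR, read higher in both knockout arrays than in both wild-type arrays on all 3 of its probe sets, by 0.50, 0.59 and 0.47 on the log2 scale, without passing (limma adjusted p = 0.992 for each). Pcp4l1, in the same stretch, differed by -0.18 with overlap on 1 probe set and by -0.42 on the other. On the latter both knockout arrays (1292.7 and 1142.4) lay below both wild-type arrays (1681.1 and 1576.2). Groups were separate with knockout higher in 14.3% and with knockout lower in 12.2% of all tested probe sets. B4galt3, a galactosyltransferase gene beyond Fcer1g, differed by 0.23 with overlap.

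Fcer1a, the ligand-binding chain of the high-affinity IgE receptor, which also uses the gamma chain, read 336 and 243.2 in knockout arrays and 230.3 and 98 in wild-type arrays. It was too dim to be tested, and its groups were separate by a small margin.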
